A study of Mus musculus with 17 samples.

Results

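The axon guidance ligands and receptors comprise 52 genes in 4 families, taken from a fixed list: 6 of slit and robo, 8 of netrin and its receptors, 21 of semaphorin, plexin and neuropilin, and 17 of ephrin and Eph. They were found by symbol among 22225 protein-coding genes of the mm9 annotation. For each gene the read pairs of all H3K27ac HiChIP loops with an anchor within 5 kb of one of its transcription start sites were summed. H3K27ac marks active promoters and enhancers, and a HiChIP read pair joins 2 regions that lay together in the nucleus while at least one of them carried the mark. The study set out to separate such contacts by cell subpopulation. Mouse embryonic stem cells (mESC) were differentiated as embryoid bodies (EBs) in hanging drops and then kept in 0.5 uM retinoic acid (RA) until RA-day 4. In the bulk group, 12 libraries were made from the unsorted EB cells. In the second group, labelled cluster2, 5 libraries were made from cells of the same treatment that were sorted by FACS as positive for both EpCAM and CD38, and they are called double positive (DP) here. The methods give 5 separate sorts for the DP cells, without tying each to a library. Both groups had the same RA dose and time, no genotype other than that of the mESC line is given, and the bulk EBs still hold the cells that the sort selects. The labels name every sample only as mouse embryonic stem cell.

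Axon guidance molecules are secreted or membrane-bound cues and the receptors by which growing axons and migrating cells read them. Slits bind robo receptors and mostly repel. Netrins attract through Dcc and neogenin and repel through Unc5 receptors. Semaphorins act through plexins, with neuropilins as co-receptors for the secreted class 3 members. Ephrins are bound to the membrane and meet Eph receptor tyrosine kinases on neighbouring cells, and the same molecules also act at boundaries between epithelia and in vessels.

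The libraries held between 65178 and 241202 read pairs in loops for bulk and between 50508 and 118179 for DP. Values are given below as normalized counts, which are CPM (read pairs scaled to a common library total, with TMM scaling in edgeR). One DP read pair was worth between 3.65 and 7.88 CPM and one bulk read pair between 5.19 and 20.5 CPM. The TMM factors lay between 0.572 and 0.8 in bulk and between 2.32 and 2.51 in DP, so the choice of scaling bears on every level. Genes with enough read pairs, 14052 in all, were tested with edgeR (quasi-likelihood), and an adjusted p below 0.05 was called. The median gene had a log2 fold change of -0.52 (DP over bulk), and without TMM it had 1.21, a shift of 1.73. Differences from the median gene are therefore given below for the members called higher in DP, and for Efna3 and Ephb2 among those called lower. For the other members called lower with a DP read pair, these differences ran from -5.87 (Plxna2) to -0.42 (Plxnb1). Their fold changes are printed below without this correction. Single loops were tested alike, and all tested loops with a DP read pair had a median log2 fold change of 1.02. The DP loops used 15082 anchors and the bulk loops 216073, and 15074 were common to both. Each bulk library had between 8.40% and 16.1% of its read pairs in loops with both anchors in this common set, called shared anchors below, and each DP library had 99.98% or more. On shared anchors the median gene had a log2 fold change of 0.42. A gene without an anchor in the DP set has no DP read pair by construction, and a lack of contact cannot be told apart from a lack of listed anchors there. For such genes the call is given and no fold. In bulk, fewer cells of a type and fewer contacts per cell cannot be told apart.

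Most of the guidance genes had fewer H3K27ac loop read pairs in DP cells than in bulk, and a small set led by the ephrin ligand gene Efna1 had more. All 52 genes had an anchor in the window, 35 had one that DP loops used, and 17 had none. Of the 46 members tested, 5 were higher in DP, 34 were lower and 7 did not pass the test. Over all genes tested 20.6% were called higher and 42.8% lower. The members higher in DP were Efna1, Efna4, Efna2, Plxnb2 and Sema6c. Among the 35 tested members with at least 1 DP read pair, 23 were lower, against 27% of all genes with a DP read pair, and 5 were higher, against 26.3%. Their median log2 fold change was -1.64, and that of all genes with a DP read pair was -0.01. With the 11 tested members that lack DP read pairs set at the bound of 3 read pairs over the DP group, the members' median was -2.39 and that of all genes, treated alike, was -0.52. All 5 DP libraries lay below all 12 bulk libraries for 16 members, which holds for 15% of all genes tested. For 5 of these members no DP anchor exists, so that their place is fixed, and the other 11 had a DP read pair, where 9.68% of all genes with one lay below. DP lay above bulk for 1 member, Efna1, which holds for 7.23%. Scaled by library size alone, without TMM, 14 members were higher and 18 lower, and on shared anchors, where 28 could be tested, 3 were higher (Efna1, Plxnb2 and Sema6a) and 10 lower. Of the members called, 12.8% were thus higher with TMM, 43.8% with library size alone and 23.1% on shared anchors, against 32.5%, 67.8% and 71.9% of all genes called. The remaining 6 members, Unc5d, Plxnd1, Sema3d, Sema3e, Epha5 and Epha7, had between 3 and 10 bulk read pairs and no DP read pair, and were too sparse to test.

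**Figure D1:**
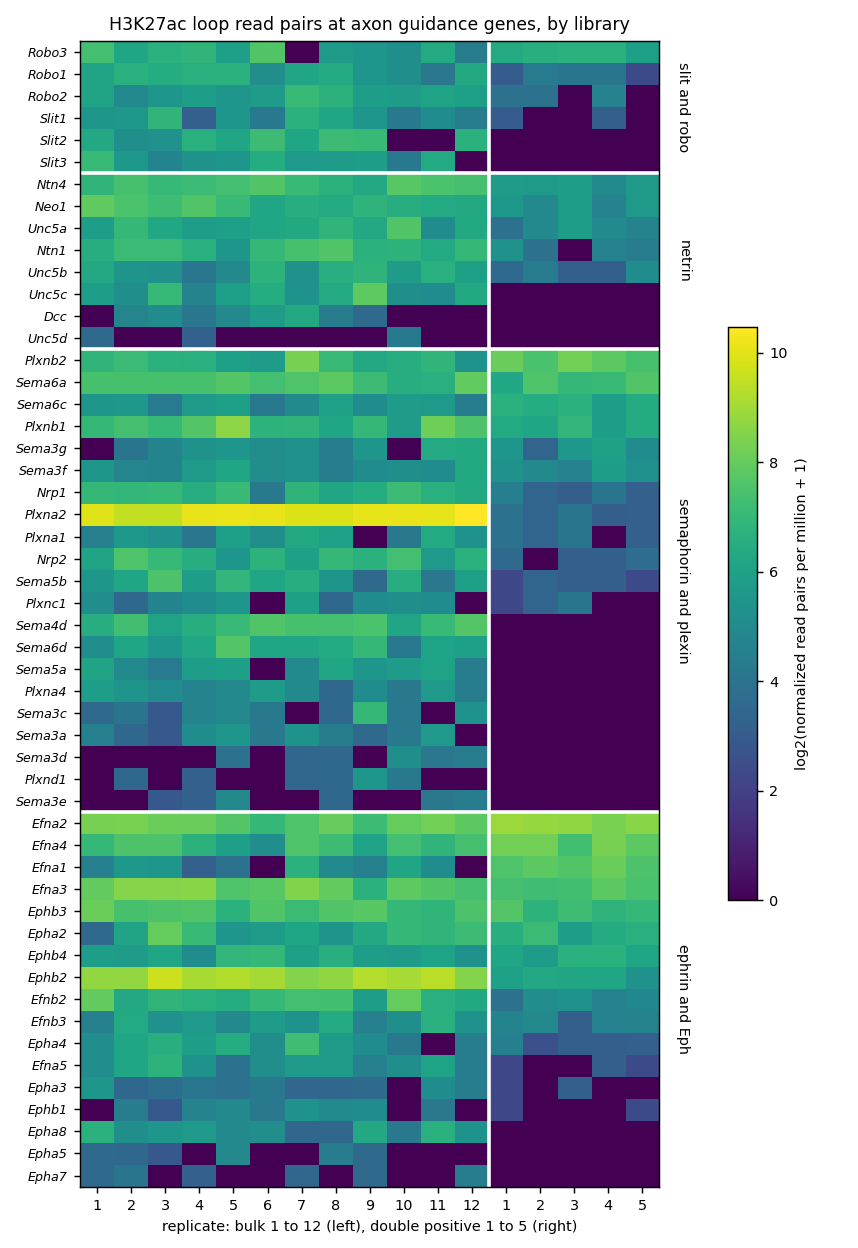
Normalized counts of the 52 members (rows, grouped by family) in the 12 bulk and 5 DP libraries (columns), as log2 of CPM plus 1. The darkest cells are 0 read pairs. The 17 members without a DP anchor are dark in all 5 DP columns, Plxna2 and Ephb2 are the brightest rows of bulk, and Efna1 is brighter in every DP library than in any bulk library.

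The promoter stretches of 6 members that the results turn on are shown because their anchors lie over them: the 3 neighbouring ephrin-A genes, of which Efna1 and Efna4 were called higher and Efna3 lower, Plxnb2 (higher), and Plxna2 and Ephb2, the members with the most bulk read pairs (lower). Each runs 5′ to 3′ on the gene's strand, from 250 bases before to 50 bases after the annotated gene start, in mm9. Capitals mark GC boxes (GGGCGG on either strand).
Efna1, chr3:89085015-89085314, minus strand: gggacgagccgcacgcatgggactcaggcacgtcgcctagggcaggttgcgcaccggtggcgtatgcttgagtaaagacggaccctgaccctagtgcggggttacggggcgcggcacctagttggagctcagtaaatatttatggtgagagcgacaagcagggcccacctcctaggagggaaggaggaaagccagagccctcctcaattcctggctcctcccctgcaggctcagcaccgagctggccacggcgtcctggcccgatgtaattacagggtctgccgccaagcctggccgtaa
Efna3, chr3:89126838-89127137, minus strand: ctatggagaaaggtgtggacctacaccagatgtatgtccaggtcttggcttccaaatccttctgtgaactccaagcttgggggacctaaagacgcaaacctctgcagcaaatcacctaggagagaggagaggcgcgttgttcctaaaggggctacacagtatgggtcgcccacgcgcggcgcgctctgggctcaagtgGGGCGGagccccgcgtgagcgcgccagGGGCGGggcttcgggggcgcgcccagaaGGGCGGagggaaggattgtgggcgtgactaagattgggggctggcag
Efna4, chr3:89141901-89142200, minus strand: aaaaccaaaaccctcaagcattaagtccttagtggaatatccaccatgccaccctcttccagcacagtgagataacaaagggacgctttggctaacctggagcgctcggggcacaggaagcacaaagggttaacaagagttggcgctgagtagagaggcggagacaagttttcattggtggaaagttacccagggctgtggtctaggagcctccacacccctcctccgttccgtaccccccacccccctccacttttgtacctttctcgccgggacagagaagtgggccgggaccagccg
Plxnb2, chr15:89011169-89011468, minus strand: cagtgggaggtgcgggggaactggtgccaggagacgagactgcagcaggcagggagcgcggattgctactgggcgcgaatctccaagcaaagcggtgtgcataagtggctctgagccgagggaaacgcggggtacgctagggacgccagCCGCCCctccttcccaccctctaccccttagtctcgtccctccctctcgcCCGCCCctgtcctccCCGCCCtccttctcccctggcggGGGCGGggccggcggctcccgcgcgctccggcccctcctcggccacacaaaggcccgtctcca
Plxna2, chr1:196445773-196446072, plus strand: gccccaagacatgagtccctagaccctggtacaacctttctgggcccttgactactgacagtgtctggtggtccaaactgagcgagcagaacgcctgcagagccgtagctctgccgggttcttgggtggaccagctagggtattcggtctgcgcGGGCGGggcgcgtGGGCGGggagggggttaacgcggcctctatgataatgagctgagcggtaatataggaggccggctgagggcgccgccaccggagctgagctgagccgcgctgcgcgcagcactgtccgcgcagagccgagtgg
Ephb2, chr4:136391854-136392153, minus strand: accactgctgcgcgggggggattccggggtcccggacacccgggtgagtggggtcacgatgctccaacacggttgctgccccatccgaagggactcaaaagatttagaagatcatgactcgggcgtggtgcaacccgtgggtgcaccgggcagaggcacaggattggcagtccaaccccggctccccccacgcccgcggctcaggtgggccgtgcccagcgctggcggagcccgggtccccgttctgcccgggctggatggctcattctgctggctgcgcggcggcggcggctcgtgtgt
The 4 letter groups searched, all on both strands, were the GC box, bound by SP factors, AGATAA, bound by GATA factors, AGGTCA, the half-site of retinoid and other nuclear receptors, and GATC, where the enzyme of the HiChIP digest, MboI, cuts. A GC box was found in 37 of the 52 member promoters (71.2%) and in 43.5% of all 22220 promoters of this length. It was present in 3 of the 5 members called higher and in 23 of the 34 called lower. AGATAA was found in 2 members, Efna4 and Epha3, against 10.3% of all promoters, and AGGTCA in 6 members (11.54%), none of them called higher, against 14.4%. GATC lay in 23 members (44.2%) and in 46.2% of all promoters. The median GC content was 65% over the members and 55.3% over all promoters.

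Among the ephrins, which act as ligands, the A-type ligands Efna1, Efna4 and Efna2 were higher in DP, and Efna3, Efna5, Efnb2 and Efnb3 were lower. All 7 ephrin genes had an anchor that DP loops used. Efna1 (chr3:89075655-89085064, minus strand), which encodes a ligand of EphA2 in epithelia and vessels, had normalized counts of 193, 229, 197, 276 and 185 in DP replicates 1 to 5. Its bulk counts ran from 0 over a median of 26.9 to 100.5. Every DP library was above every bulk library, with means of 216 ± 37.5 (SD, n = 5) and 33.0 ± 29.8 (SD, n = 12). Its log2 fold change was 2.57 ± 0.33 (SE, adjusted p = 3.9e-08 in edgeR), or 3.09 above the median gene, and on shared anchors it was 1.64 (adjusted p = 9.5e-07). Bulk held 41 read pairs at Efna1, of 1616066 over its 12 libraries, and DP 205, of 409248 over its 5.

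Efna4 (chr3:89137312-89141950, minus strand), like Efna1 a ligand anchored by a lipid, had normalized counts of 299, 297, 157, 315 and 226 in DP. In bulk they ran from 35.5 over 135 to 191, so that DP replicate 3 lay within the bulk range and the other 4 above it. Its log2 fold change of 0.96 ± 0.24 (SE, adjusted p = 8.4e-04 in edgeR) was 1.48 above the median gene. On shared anchors, where the median gene was at 0.42, it was 0.50 and no longer passed the test (adjusted p = 0.087). Its only anchor also covers the start of Adam15, which encodes a membrane metalloprotease, and the read pairs of the 2 genes cannot be told apart.

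Efna2 (chr10:79642227-79652755, plus strand), a ligand of EphA receptors in the brain, had 474, 444, 425, 323 and 390.3 in DP and from 124 over 256 to 332 in bulk. Only DP replicate 4 lay within the bulk range. At 0.75 ± 0.19 (SE, adjusted p = 8.7e-04 in edgeR), its log2 fold change was 1.27 above the median gene. The excess lay at an anchor 3232 bp before the gene start, which also serves Cirbp and 1600002K03Rik and had 159 bulk and 336 DP read pairs. The anchor over the start of Efna2 itself had 138 bulk and 93 DP read pairs. With a window of 2.5 kb the log2 fold change turned to -0.44 (adjusted p = 0.18) and on shared anchors to -0.27 (adjusted p = 0.33), so the direction of Efna2 depends on which loops are counted.

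Efna3 (chr3:89117821-89126887, minus strand), another EphA ligand gene, lies between Efna1 and Efna4. It had 164, 151, 157, 229 and 177 in DP and from 101 over 241 to 393 in bulk, and the groups overlapped. Its log2 fold change of -0.63 ± 0.24 (SE, adjusted p = 0.021 in edgeR) lay -0.11 from the median gene and turned to 1.14 with library size alone. Without DP replicate 2 it was -0.58 and did not pass the test (adjusted p = 0.0609), nor did it without DP replicate 1 (-0.601, adjusted p = 0.0544). It also lost its call with DESeq2 (-0.52, adjusted p = 0.0761), on shared anchors (-0.48, adjusted p = 0.102), over spans of at least 20 kb (-0.31, adjusted p = 0.304), with loops counted once (-0.32, adjusted p = 0.185) and with thinning to equal depth (-0.30, adjusted p = 0.344). Its 3 anchors differed: 186 bulk and 99 DP read pairs at the start, 28 and 80 at one 5113 bp from it, and 164 and 0 at one 3798 bp from it that is not in the DP set.

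The lower ephrins were further from the median gene. Efna5 (chr17:62953533-63230666, minus strand), whose product repels retinal axons, had 3 DP read pairs, with normalized counts of 3.65, 0, 0, 7.88 and 4.11 in DP and from 14.6 over 38.5 to 108 in bulk. The groups did not overlap, and the log2 fold change was -3.65 ± 0.59 (SE, adjusted p = 2.9e-06 in edgeR). Efnb2 (chr8:8617434-8661239, minus strand), a ligand of arterial vessels, had 14.6, 34.1, 39.3, 23.7 and 28.8 in DP and from 55.9 over 107 to 252 in bulk. These groups did not overlap either, and the log2 fold change was -2.19 ± 0.36 (SE, adjusted p = 3.5e-06 in edgeR). On shared anchors Efnb2 had a log2 fold change of -0.52 (adjusted p = 0.41). Efnb3, a midline ligand, had a log2 fold change of -1.10 (adjusted p = 0.016), which turned to 0.62 with library size alone. Efnb3 lost its call with a window of 2.5 kb (-0.27, adjusted p = 0.68 in edgeR), on shared anchors (-0.98, adjusted p = 0.091) and with loops counted once (-0.63, adjusted p = 0.157). Both of its anchors also lie near a start of Wrap53, and the read pairs of these genes cannot be told apart.

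**Figure D2:**
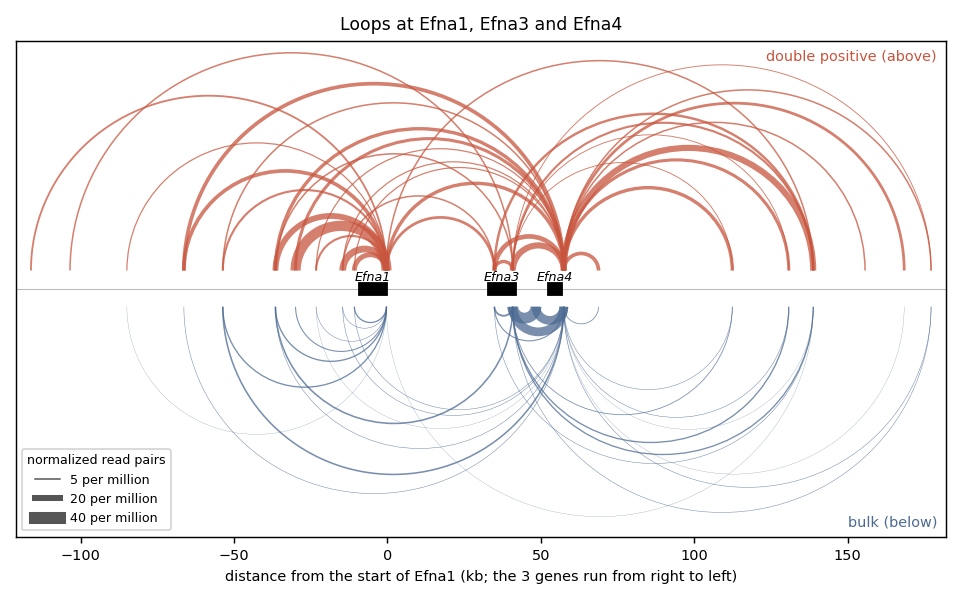
Loops at Efna1, Efna3 and Efna4 with at least 5 read pairs and a span of at most 150 kb, plotted by the distance of their anchors from the start of Efna1 (kb). Arcs above the line are DP and below it bulk, and the line width is the mean CPM of each group. A loop could enter by the read pairs of either group, and 8 loops had no bulk and 2 no DP read pair. The 2 without a DP read pair belong to the anchor between Efna3 and Efna4 that is not in the DP set.

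In the ephrin-A neighbourhood, the Efna1 loop with the most DP read pairs ran 29.6 kb to an anchor near the starts of Krtcap2, a subunit of the oligosaccharyltransferase, and Trim46. It had 4 bulk and 33 DP read pairs and a log2 fold change of 2.43 ± 0.63 (SE, adjusted p = 3.2e-04 in edgeR). Another ran 14.2 kb to the start of Dpm3 near Slc50a1, with 2 bulk and 22 DP read pairs (log2 fold change 2.62, adjusted p = 7.7e-04). The most bulk read pairs of any Efna1 loop were 5, found at 3 loops: one over 53.3 kb to Mtx1, Muc1 and Thbs3 with 7 in DP, one over 36.2 kb to Krtcap2 and Trim46 with 19 in DP (log2 fold change 1.37, adjusted p = 0.0495), and one over 10.5 kb to Dpm3 and Slc50a1 with 16 in DP (adjusted p = 0.0996). Efna4 was joined over 81.3 kb to the starts of Cks1b and Shc1 by 20 DP read pairs and 1 bulk read pair (log2 fold change 3.09, adjusted p = 1.8e-04). The Efna3 loop with the most bulk read pairs, over 7.565 kb to an anchor between Efna3 and Efna4, had 41 in bulk and none in DP, and that anchor is not in the DP set. The direct loop of Efna3 with Efna4, 16.6 kb long, had 33 bulk and 20 DP read pairs (log2 fold change -1.02, adjusted p = 0.042). These loop values stand beside a median log2 fold change of 1.02 over all tested loops with a DP read pair. The 3 genes share loops with each other, so their counts are not independent.

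No Eph receptor was called higher in DP. Of the 10 receptor genes, 8 were tested, 5 were lower (Ephb2, Epha8, Epha4, Ephb1 and Epha3) and 3 did not pass the test (Epha2, Ephb3 and Ephb4). The share called lower over all genes tested was 42.8%. Ephb2 (chr4:136203454-136391903, minus strand), a receptor of B-type ephrins in commissural axons and intestinal epithelium, had 62.0, 78.0, 70.8, 71.0 and 41.1 in DP. In bulk its counts ran from 369 over 537 to 822, and the groups did not overlap. With a log2 fold change of -3.06 ± 0.24 (SE, adjusted p = 1.2e-12 in edgeR), it lay -2.54 from the median gene, and it had -1.40 on shared anchors (adjusted p = 3.2e-05). The anchor over its start, whose promoter is printed above, had 331 bulk and 61 DP read pairs, and an anchor 4155 bp before the start had 224 in bulk and is not in the DP set. The loop between these anchors had 55 bulk read pairs and none in DP. The loop with the most DP read pairs ran 77.7 kb from the start into the gene body and had 14 bulk and 16 DP read pairs, with a log2 fold change of -0.18 ± 0.56 (SE, adjusted p = 0.80).

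Epha8, the neighbour of Ephb2 on chr4, had 51 bulk read pairs and no DP anchor, with bulk counts from 10.05 over 38.7 to 102 (adjusted p = 1.5e-06). Its loop with the most bulk read pairs, with 5, ran 127 kb to the start of Ephb2. Epha5 had 9 bulk read pairs. Epha4, a receptor of both ephrin types in spinal cord and hindbrain, had a log2 fold change of -2.35 (adjusted p = 1.8e-04), and Epha3 and Ephb1 had 2 DP read pairs each. Epha2, a receptor of epithelial cells and the main partner of ephrin-A1, had means of 95.3 ± 30.9 (SD, n = 5) in DP and 94.7 ± 65.0 (SD, n = 12) in bulk. A 22.3 kb loop from Epha2 to a region outside genes before its start had 8 bulk and 33 DP read pairs. The log2 fold change of this loop was 1.54 (adjusted p = 0.01), beside a median of 1.02 over all tested loops with a DP read pair. At Ephb3 a 6.094 kb loop from the start to an anchor inside the gene had 7 bulk and 37 DP read pairs, with a log2 fold change of 1.84 (adjusted p = 0.0021). Over spans of at least 20 kb, which leave that loop out, Ephb3 was called lower (log2 fold change -0.59, adjusted p = 0.0356), as it was with each loop counted once (-0.51, adjusted p = 0.0381). Both the Epha2 and the Ephb3 loop were named after their values were seen. The loops named for Efna3, Sema6a, Plxnb1 and Robo3 were not set by a rule beforehand either. Ephb4, the vein receptor for ephrin-B2, had means of 79.5 ± 21.9 (SD, n = 5) and 68.6 ± 28.6 (SD, n = 12). With library size alone the log2 fold changes of these 3 receptors were between 1.43 and 1.99 and passed the test as higher.

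**Figure D3:**
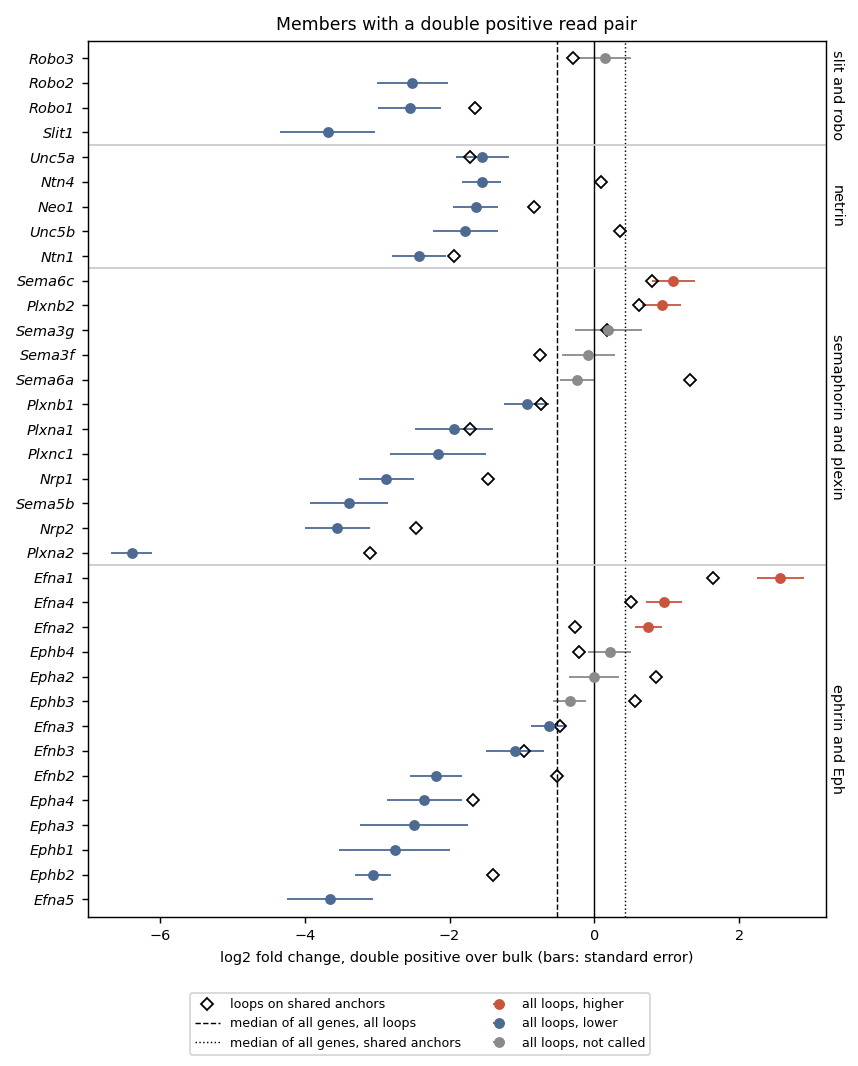
Log2 fold changes (DP over bulk) of the 35 members with a DP read pair, with standard errors, by family. Filled points use all loops and are coloured by their call, open diamonds use shared anchors where the gene could be tested, and the vertical lines mark 0 and the medians of all genes. Most filled points lie left of all 3 lines, Efna1 lies furthest right and Plxna2 furthest left, and the diamonds lie closer to 0 for the genes furthest left.

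In the semaphorin family the receptor gene Plxnb2 and the ligand gene Sema6c were higher in DP, while 13 of the 18 tested members were lower. Of all genes tested, 42.8% were lower. Among the 13, 6 had no DP anchor, so that their place is fixed, and 7 had a DP read pair. Plxnb2 (chr15:88985979-89011218, minus strand), a plexin of epithelia and the neural tube, had 266, 175, 299, 229 and 168 in DP. Its bulk counts ran from 41.0 over 100.1 to 322, and only the highest bulk library reached the DP range. It had a log2 fold change of 0.93 ± 0.27 (SE, adjusted p = 0.0033 in edgeR), or 1.45 above the median gene. On shared anchors, where the median gene was at 0.42, it had 0.62 (adjusted p = 0.044). With each loop counted once per library it was 0.54 and did not pass the test (adjusted p = 0.0765). A 6.152 kb loop within Plxnb2, from the start to an anchor inside the gene, had 9 bulk and 33 DP read pairs. This loop had a log2 fold change of 1.43 (adjusted p = 0.015), beside a median of 1.02 over all tested loops with a DP read pair. Both of its anchors also reached a region outside genes, with 22 DP read pairs each against 2 and 5 in bulk. Its loop with the most bulk read pairs, with 10, joined Fam116b over 16.2 kb and had 18 in DP.

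Sema6c (chr3:94964379-94977946, plus strand), a membrane-bound semaphorin that plexins of class A read, had 102, 87.7, 102, 55.2 and 86.3 in DP and from 17.8 over 46.1 to 62.1 in bulk. Only DP replicate 4 lay within the bulk range. Sema6c had a log2 fold change of 1.09 ± 0.30 (SE, adjusted p = 0.0018 in edgeR), or 1.61 above the median gene. The anchor over the gene start had 34 bulk and 41 DP read pairs, and an anchor over starts inside the gene, 11674 bp away, had 15 and 48. With the gene start alone the log2 fold change was 0.27 (adjusted p = 0.55), and on shared anchors it was 0.80 (adjusted p = 0.078). Sema6c had no loop with more than 6 DP read pairs, and that one ran 43.7 kb to the start of Gabpb2.

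Plxna2 (chr1:196446023-196643063, plus strand), a receptor for class 3 and class 6 semaphorins in developing brain, had the most bulk read pairs of all members, 1098, and 11 in DP. Its normalized counts were 14.6, 9.75, 15.7, 7.88 and 8.22 in DP and from 720.1 over 1087 to 1414 in bulk. The log2 fold change of -6.39 ± 0.29 (SE, adjusted p = 1.6e-18 in edgeR) was the lowest of the members with a DP read pair, and on shared anchors it was -3.09 (adjusted p = 2.2e-10). DP loops used 1 of its 8 anchors, the one over the gene start, which had 382 bulk and 11 DP read pairs. A 16.1 kb loop into the gene had 20 bulk and 3 DP read pairs (log2 fold change -2.70, adjusted p = 2.3e-04), and the loop with the most DP read pairs, 10.04 kb long, had 5 against 8 in bulk. Plxna2 lies in the part of chromosome 1 from 130 Mb on. This part and chromosome 2 from 150 Mb on held between 12.4% and 20.7% of all bulk read pairs, by library, and between 4.10% and 4.20% of the DP ones. How far the gene shares in this difference was not tested.

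Both neuropilins were lower. Nrp2 (chr1:62749859-62865269, plus strand) had 10.9, 0, 7.87, 7.88 and 12.3 in DP and from 43.9 over 101 to 192 in bulk, with no overlap and a log2 fold change of -3.55 ± 0.45 (SE, adjusted p = 3.5e-08 in edgeR). Its loops were sparse in DP, with at most 3 read pairs, for a 12.5 kb loop into the gene. The loop with 10 read pairs in bulk ran 1317 kb to an anchor that is not in the DP set and had none in DP. Nrp1 had a log2 fold change of -2.87 ± 0.38 (SE, adjusted p = 8.6e-08). Sema4d (chr13:51796615-51889116, minus strand), which signals through Plxnb1, had 12 anchors and 150 bulk read pairs but no DP anchor, with bulk counts from 63.7 over 144 to 205 (adjusted p = 6.2e-11). Sema6d (chr2:123915705-124493506, plus strand) had 85 bulk read pairs and no DP anchor, with bulk counts from 18.0 over 70.7 to 205 (adjusted p = 2.6e-08). Sema3a, Sema3c, Sema5a and Plxna4 were called lower with between 24 and 48 bulk read pairs and no DP anchor. The other lower members were Sema5b (log2 fold change -3.39), Plxnc1 (-2.16), Plxna1 (-1.94) and Plxnb1 (-0.94). Plxnb1 turned to 0.82 with library size alone and then passed the test as higher (adjusted p = 0.017). Its loop to the starts of Atrip, Shisa5 and Trex1, over 39.1 kb, had 3 bulk and 22 DP read pairs (log2 fold change 2.18, adjusted p = 0.0033), while a 35.6 kb loop to a region outside genes, whose anchor there is not in the DP set, had 18 bulk read pairs and none in DP.

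Sema3f, Sema3g and Sema6a did not pass the test, and the start sites of Sema6a gave different values. The anchor over the start of the Sema6a gene had 94 bulk and 36 DP read pairs. Anchors at starts 40447 and 32017 bp inside the gene had 52 and 20 in bulk and 78 and 62 in DP. The 18.2 kb loop from the first of these into the gene had 1 bulk and 38 DP read pairs, seen in all 5 DP libraries (log2 fold change 3.97 ± 0.74, SE, adjusted p = 5.8e-07 in edgeR). A 6.596 kb loop from the second had 2 and 31 (log2 fold change 3.07, adjusted p = 6.5e-05). Over all its loops the log2 fold change of Sema6a was -0.24 (adjusted p = 0.38). With the gene start alone it was -1.30 (adjusted p = 0.0017), and on shared anchors it was 1.33 (adjusted p = 5.5e-04).

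**Figure D4:**
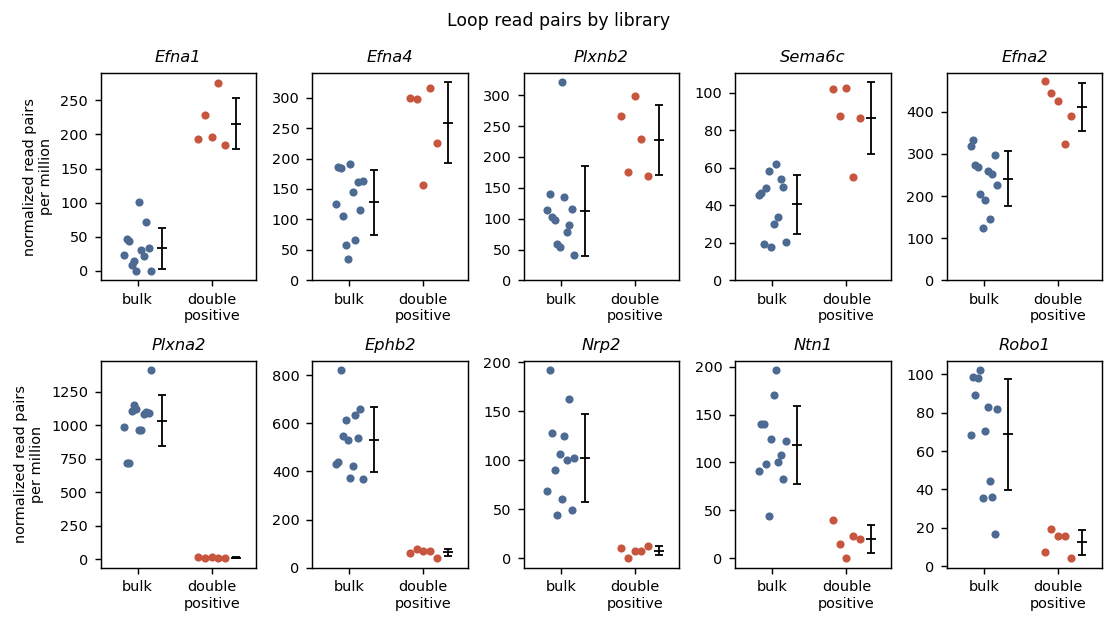
Normalized counts (CPM) of 10 members in each library, bulk (blue, 12) and DP (red, 5), with the mean and SD beside the points and an axis of its own for each gene. The 5 genes in the upper row are Efna1, Efna4, Plxnb2, Sema6c and Efna2, and the others were chosen after their values were seen. In the upper row DP is higher, without overlap for Efna1 and with 1 or more libraries overlapping for the other 4. In the lower row bulk is higher, without overlap for Plxna2, Ephb2, Nrp2 and Ntn1.

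All 7 tested genes of the netrin family were lower in DP, beside 42.8% of all genes tested. For Unc5c and Dcc no DP anchor exists, so that their place is fixed. The other 5 had a DP read pair, and 27% of all genes with one were lower. Unc5c and Dcc could not be tested on shared anchors. Of the other 5, Ntn1 and Unc5a were still called lower there, beside 985 of all 9802 genes tested on shared anchors. Ntn4, Unc5a and Neo1 turned to log2 fold changes between 0.09 and 0.20 with library size alone. Ntn1 (chr11:68022866-68214325, minus strand), the secreted netrin of the floor plate, had 40.1, 14.6, 0, 23.7 and 20.5 in DP and from 43.9 over 116 to 197 in bulk. There was no overlap between the groups, and its log2 fold change was -2.42 ± 0.37 (SE, adjusted p = 1.1e-06 in edgeR) and -1.93 on shared anchors (adjusted p = 3.5e-05). With library size alone it was -0.69 and did not pass the test (adjusted p = 0.103). No loop of Ntn1 had more than 5 read pairs in either group.

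Ntn4 (chr10:93103426-93209952, plus strand), a netrin of basement membranes, had 54.7, 48.7, 55.1, 31.5 and 49.3 in DP and from 78.2 over 149.9 to 216 in bulk, again without overlap. Its log2 fold change was -1.56 ± 0.27 (SE, adjusted p = 8.0e-06 in edgeR) and 0.09 on shared anchors (adjusted p = 0.89). An 89.6 kb loop within the gene had 5 bulk and 23 DP read pairs. This loop had a log2 fold change of 1.62 (adjusted p = 0.021), beside a median of 1.02 over all tested loops with a DP read pair. A 6.612 kb loop from the start to an anchor outside the DP set had 20 bulk read pairs and none in DP.

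Of the netrin receptors, Neo1 (chr9:58722486-58884248, minus strand), which also binds RGM proteins, had 47.4, 29.2, 55.1, 23.7 and 49.3 in DP and from 71.0 over 101 to 239 in bulk. All DP libraries lay below bulk, with a log2 fold change of -1.64 ± 0.32 (SE, adjusted p = 3.3e-05 in edgeR) and -0.84 on shared anchors (adjusted p = 0.07). Its loop with the most read pairs in both groups, 25 in bulk and 17 in DP, ran 38.3 kb to a region outside genes and did not pass the test (adjusted p = 0.10). Unc5c (chr3:141128528-141497888, plus strand) had 85 bulk read pairs and no DP anchor, with bulk counts from 24.5 over 57.7 to 235 (adjusted p = 1.8e-07), and its loop with the most bulk read pairs, with 8, ran 352 kb. Dcc, the attractive netrin receptor, had 28 bulk read pairs in 22 loops and no DP anchor (adjusted p = 1.8e-04). Unc5a and Unc5b had log2 fold changes of -1.55 and -1.78, and Unc5b turned to 0.36 on shared anchors (adjusted p = 0.68).

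The 3 slit genes and the receptor genes Robo1 and Robo2 were lower in DP, beside 42.8% of all genes tested, and Robo3 did not pass the test. Slit2 (chr5:48374394-48697521, plus strand) and Slit3 (chr11:34934726-35522009, plus strand), secreted repellents, had 83 and 59 bulk read pairs and no DP anchor (adjusted p = 4.4e-07 and 5.9e-07). The bulk counts of Slit2 ran from 0 over 76.3 to 145, and those of Slit3 from 0 over 48.5 to 136. Slit1 (chr19:41674747-41818155, minus strand) had 3 DP read pairs, with normalized counts of 7.29, 0, 0, 7.88 and 0 in DP and from 8.18 over 44.3 to 115 in bulk. All DP libraries lay below all bulk libraries, with a log2 fold change of -3.68 ± 0.66 (SE, adjusted p = 1.2e-05 in edgeR). The slit loop with the most read pairs, of Slit2, had 8 in bulk and none in DP.

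Robo1 (chr16:72663394-73046340, plus strand), the main slit receptor of commissural axons, had 7.29, 19.5, 15.7, 15.8 and 4.11 in DP and from 16.5 over 76.2 to 102 in bulk. The groups overlapped in 1 DP library, replicate 2, and the log2 fold change was -2.55 ± 0.43 (SE, adjusted p = 5.0e-06 in edgeR) and -1.65 on shared anchors (adjusted p = 0.0097). Its loop with the most bulk read pairs, with 8, ran 16.4 kb into the gene and had 4 in DP. Robo2, its neighbour on chr16, had a log2 fold change of -2.51 ± 0.49 (adjusted p = 4.3e-05). With library size alone Robo1 and Robo2 had -0.86 and -0.80 and did not pass the test. Robo3, the receptor that sets when commissural axons cross the midline, had means of 88.6 ± 16.9 (SD, n = 5) in DP and 78.1 ± 56.9 (SD, n = 12) in bulk (log2 fold change 0.14, adjusted p = 0.75). One of its loops was lower, a 24.4 kb loop to a region outside genes with 25 bulk and 2 DP read pairs (log2 fold change -3.35, adjusted p = 8.1e-06).

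As a share of all read pairs in loops, the families differed from the picture of single genes. The ephrin and Eph family took 0.348% ± 0.0305 (SD, n = 5) of the DP read pairs and 0.130% ± 0.0299 (SD, n = 12) of the bulk read pairs, 2.68 times as much, and the groups did not overlap. The DP replicates 1 to 5 had 0.365%, 0.359%, 0.321%, 0.384% and 0.312%, and bulk ran from 0.0933% over 0.127% to 0.195%. Loops at any start site took 94.9% of the DP and 49.2% of the bulk read pairs, so a start site of any kind holds a larger share in DP. As a share of the read pairs on shared anchors alone, the ephrin family had 0.348% in DP and 0.333% in bulk, and the groups overlapped. Of all read pairs in loops, the semaphorin family had 0.162% in DP and 0.16% in bulk, the slit and robo family 0.0278% and 0.0269%, and the netrin family 0.0374% and 0.0448%, and these groups overlapped. As a share of the read pairs on shared anchors, netrin family genes had 0.0374% in DP and 0.0744% in bulk, without overlap.

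The loops at the members also had other partners in DP. In the DP libraries between 76.3% and 80.8% of the read pairs at members had their other anchor near a start site too, against between 26.3% and 34.0% in bulk, and the groups did not overlap. The same shares over all start sites were between 73.0% and 73.5% in DP and between 28.8% and 33.9% in bulk. The median span of the read pairs at members lay between 77.7 and 87.4 kb in DP and between 118 and 163 kb in bulk, and over all start sites between 79.4 and 81.7 kb and between 111 and 134 kb. Members and start sites as a whole differed between the groups in the same direction in both measures.

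**Figure D5:**
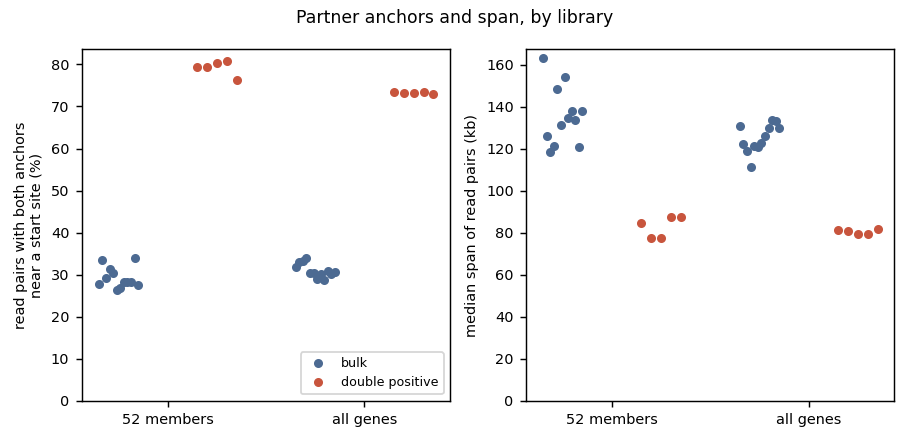
Share of read pairs whose 2 anchors both lie near a start site (left, in percent) and median span of the read pairs (right, in kb), for loops at the 52 members and at all genes. Each point is a library, bulk in blue (12) and DP in red (5). In both panels the groups are separate, and the members lie near the values of all genes.

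In all, 3833 loops touched the 156 anchors of the members, with 5917 bulk and 2334 DP read pairs. Of these, 34 had enough read pairs to test, 14 were higher in DP, 9 were lower and 11 did not pass the test, while 38.1% of all tested loops were higher and 22.4% lower. At 8 of the 14 higher loops and at 5 of the 9 lower ones the partner anchor lay near a start site, and 4 of the lower loops had no DP read pair. Over tested loops with a DP read pair the median log2 fold change was 1.05 at members and 1.02 in all. Leaving out bulk replicate 4 left 9 loops higher.

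Other genes of the pathway, 72 further ligands, receptors and intracellular partners, were lower in 38 and higher in 5 of the 64 tested. Over all genes 20.6% were called higher and 42.8% lower with TMM. With library size alone 26 of these pathway genes were higher and 18 lower, beside 7768 higher and 3690 lower of all 14052 genes. The 5 genes higher with TMM were Ntn5, Plxna3, Sema6b, Cdk5 and Ntn3. Ntn5, a secreted netrin, had means of 243 ± 40.7 (SD, n = 5) in DP and 45.1 ± 28.6 (SD, n = 12) in bulk and a log2 fold change of 2.36 ± 0.28 (SE, adjusted p = 7.9e-09 in edgeR). Plxna3, a class A plexin, had a log2 fold change of 2.07 ± 0.49 (SE, adjusted p = 4.3e-04). Among the lower ones were Fyn, a Src-family kinase (-4.60 ± 0.46, SE, adjusted p = 2.7e-10), Dpysl3, a collapsin response mediator protein (-4.46 ± 0.45, SE, adjusted p = 3.3e-10), and Enah, an actin regulator (-3.11 ± 0.32, SE, adjusted p = 3.7e-10). The median log2 fold change of the 56 tested genes with a DP read pair was -0.99. All 5 higher genes are named, and the 3 lower ones were chosen for the smallest p.

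Cell type markers differed between the groups beside these results. For comparison, 20.6% of all genes tested were called higher and 42.8% lower. Of 18 tested marker genes of neural progenitors and neurons, 15 were lower in DP and none higher, and their summed normalized count lay between 1821 and 3376 in bulk and between 338 and 493 in DP, with Dcx, Isl1 and Map2 at 0 in DP. Of 15 tested endoderm markers, 7 were higher and 3 lower, with sums between 879 and 1346 in bulk and between 1561 and 2083 in DP, and Hnf4a was at 0 in DP. The endothelial list had sums between 61.5 and 263 in bulk and between 15.7 and 29.2 in DP, with Pecam1, Cdh5, Kdr, Tek, Flt1 and Emcn at 0 in DP. None of the markers named at 0 has an anchor in the DP set, so their 0 is fixed by the anchors listed. The mesenchyme and heart list had sums between 205 and 424 in bulk and between 103 and 136 in DP, with 3 of 5 tested genes lower. Of these 3, Prrx1 and Pdgfra have no DP anchor, so their 0 in DP is fixed likewise. Of the pluripotency list 3 genes were tested, 2 were higher (Pou5f1 and Tdgf1) and 1 lower (Esrrb, which has no DP anchor). The sums of this list lay between 114 and 543 in bulk and between 110.4 and 239 in DP. Epcam and Cd38, by which the cells were sorted, had log2 fold changes of 1.05 and 0.65 and did not pass the test (adjusted p = 0.11 and 0.20). The part that cell type plays in the levels of the guidance genes was not tested.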

How the data were processed

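H3K27ac HiChIP loops of 12 bulk and 5 DP libraries were analysed. Per the labels and the paper's methods, the authors aligned reads to mm9 with HiC-Pro and called loops with hichipper, and left out replicates with few strong loops. The deposited values are raw counts of read pairs per anchor pair, not normalized, and anchor pairs without one are not listed. The methods give 5 separate sorts of DP cells, not tied to single libraries, and say nothing of separate cultures for the bulk libraries, so p-values measure the spread between these libraries, which may be technical. All pairs of libraries within a group differed by more than sampling noise in a chi-square test.

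Overlapping anchors were joined (216081 anchors, 700 read pairs dropped). Genes came from GENCODE vM1 with every protein-coding transcript start. Anchors within 5 kb were used. Genes and loops that had 20 or more read pairs overall and were seen in 5 or more libraries entered edgeR 4.0.16 in R 4.3.3 (TMM, quasi-likelihood test, Benjamini-Hochberg adjustment over all genes). Standard errors (SE) given with edgeR fold changes were derived from the test, as the absolute log2 fold change over the square root of its F value. DESeq2 was version 1.42.0. In simulated data with 200 changed genes among 14052, 70.5% were recovered and 2.76% of the calls were false, and for loops 49.5% of 200 among 5369, with 13.2% of the calls false. Unlike the real data, the simulation changed few genes, gave both groups the same spread and left no gene without a DP anchor. These rates are therefore not the error rates of the calls given here. Alternatives were DESeq2, library size alone, TMMwsp, other filters, windows and spans, shared anchors, each loop counted once, thinning, no distal chromosomes 1 and 2, a replicate block and each library left out. The members, lists and tests were chosen with earlier results of these data known. Each family's called members were described at most 4 per direction by smallest p, with the 2 members of most bulk read pairs among those without a DP read pair, and each described member's loops of most DP and most bulk read pairs. Loops of Efna3, Epha2, Ephb3, Plxnb1, Sema6a and Robo3, and further loops of Efna1 and Plxnb2, were named outside this rule. One marker, Sox1, was not used here, and the value of 1 other marker is not reported here. Promoters were read from the mm9 genome. Figures used Python 3.11.15 and matplotlib 3.10.9.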

Additional observations from a re-analysis of the deposited data

Results flagged for a closer look

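In DP replicate 4 the normalized count of Ntn4 was 31.5, from 4 read pairs, while the other 4 DP libraries lay between 48.7 and 55.1, a gap of 0.731 of the group's range. The log2 fold change of Ntn4 was -1.47 without this library and -1.56 with it. The share of read pairs at the semaphorin and plexin family was 0.196% in DP replicate 3 and between 0.147% and 0.158% in the other 4 DP libraries, a gap of 0.761 of the range. Chance puts about 1 in 20 groups of 5 past the limit of 0.71, and 19 groups were looked at.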

How the results depend on the processing

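Calls at a single gene rest on between 18 and 1098 bulk and at most 411 DP read pairs, and 6 members were too sparse to test. Of 473 values of the 35 members with a fold change under other settings (leaving 1 library out aside), 405 kept direction and call, 26 lost the call, 10 gained one and 32 changed direction, 10 of them with library size alone and 8 on shared anchors. Of 595 values with 1 library left out, 581 kept both, 2 lost the call (Efna3) and 12 changed direction, all of them of members that did not pass the test. Causes were not tested except where fewer loops or libraries entered.

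With library size alone, which moved the median gene from -0.52 to 1.21, 14 members were higher and 18 lower, other pathway genes were higher in 26 and lower in 18, and member loops in 26 and 4. Over all 14052 genes tested, 7768 were higher and 3690 lower in this setting. The log2 fold changes of Ntn4 (0.19), Unc5a (0.20), Neo1 (0.092), Plxnb1 (0.82), Sema3f (1.66), Sema6a (1.54), Efna3 (1.14), Efnb3 (0.62), Epha2 (1.74) and Ephb3 (1.43) then turned positive. On shared anchors, where the median gene was at 0.42 and fewer loops entered, 3 members were higher and 10 lower, 8 other pathway genes higher and 17 lower, and 4 member loops lower. Of all 9802 genes tested on shared anchors, 985 were lower. Robo3 (-0.29), Ntn4 (0.089), Unc5b (0.36), Sema6a (1.33), Efna2 (-0.27), Epha2 (0.84), Ephb3 (0.56) and Ephb4 (-0.22) changed direction there. With the gene start alone, an alternative chosen after seeing the data, Robo3 had -0.66 and Epha2 0.46. A window of 2.5 kb gave Efna2 -0.44 and Epha2 0.11, DESeq2 gave Sema3f 0.031 and Epha2 0.11, and no filter gave Epha2 0.0097. With spans of at least 20 kb Sema3f had 0.085, Epha2 0.16 and Ephb4 -0.089, and 9 member loops were higher and 2 lower. With loops counted once Sema3f had 0.28. With at least 50 read pairs, 3 member loops could be tested in edgeR, of which 0 were higher (0 also at an unadjusted p under 0.05) and 2 lower.

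The log2 ratio of the share of read pairs was 0.05 for slit and robo, -0.26 for netrin, 0.02 for semaphorin and plexin and 1.42 for ephrin and Eph. On shared anchors, with shares taken of the read pairs there, it was -0.48, -0.99, -0.13 and 0.065. Slit and robo had -0.011 with the gene start alone, 0.55 with loops counted once and -0.14 without distal chromosomes 1 and 2. Netrin had 0.0030 with a window of 2.5 kb and 0.094 with loops counted once. Semaphorin and plexin had 0.29 with a window of 2.5 kb, -0.20 with spans of at least 20 kb and 0.67 without the distal chromosomes.

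With 1 library left out, the ratio ran from -0.086 to 0.20 for slit and robo (negative without bulk replicate 10 or DP replicate 4), from -0.32 to -0.19 for netrin, from -0.055 to 0.060 for semaphorin and plexin (negative without DP replicate 3) and from 1.39 to 1.49 for ephrin and Eph. Members higher stayed at 5 and members lower between 33 and 34, other pathway genes between 5 and 6 and between 35 and 40, and member loops between 9 (without bulk replicate 4) and 14 and between 8 and 9. Sema3f ran from -0.23 to 0.011, Sema3g from -0.0072 to 0.45 and Epha2 from -0.18 to 0.31.

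With the replicate block, over replicates 1 to 5 of each group, 5 members were higher and 33 lower, and Efnb3 lost its call (-0.98, adjusted p = 0.087 in edgeR). Robo3 had -0.15 and Epha2 0.10, 7 member loops were higher and 9 lower, and 5 other pathway genes were higher and 38 lower. The same 10 libraries without the block, an alternative chosen after seeing the data, gave 5 and 34 members, 10 and 10 member loops, and -0.21 for Robo3. Libraries of the same number had correlations of their deviations between -0.01 and 0.0098 over 5 pairs. Most genes had few read pairs per library, so these correlations cannot show whether the numbers pair the libraries.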
